A study of Mus musculus with 32 samples.

Results

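Gastrocnemius, the large calf muscle, was compared between the middle of the light phase (zeitgeber time 6, ZT6) and the middle of the dark phase (ZT18) in mice that lacked SIRT1 in SF1 neurons. Zeitgeber time counts hours from lights on. The comparison used 8 of the 32 RNA-seq libraries of the study, 4 at ZT6 and 4 at ZT18, and all 8 came from Sf1-Cre; Sirt1loxP/loxP mice, called mutants here. The mice were 10 weeks old and of mixed genetic background, and each library carried its own mouse number, so the 4 libraries of a group were separate animals. The remaining libraries were mutants at ZT0 and ZT12 and intact Sirt1loxP/loxP controls at all 4 times. Cre in these mice is driven by Sf1, which in the brain marks neurons of the ventromedial hypothalamus, so muscle itself was not the target of the deletion. Every mutant carried Cre as well as the deletion, and the effect of one cannot be told apart from that of the other. All genes with at least 1 FPKM (sequenced fragments scaled to transcript length and to the total mapped in the library) in 4 or more of the 8 libraries were tested, 11312 genes of 16634 in the deposited table.

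Skeletal muscle carries its own circadian clock. The transcription factors ARNTL (BMAL1) and CLOCK bind E-box motifs and switch on their own repressors, the period and cryptochrome genes, as well as the REV-ERB receptors NR1D1 and NR1D2, which in turn hold down Arntl. Output factors such as DBP pass the rhythm on to genes of fuel use and growth, and feeding, activity and glucocorticoid hormone, all of which rise around the dark phase in mice, act on muscle directly.

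The libraries had the transcripts that define the tissue. Of 12 core muscle genes all 12 were measured, with a group mean at ZT6 of 16911 FPKM for Ckm (muscle creatine kinase) and 987 FPKM for Des (desmin). Sirt1 itself was read in whole muscle at 5.71, 4.78, 4.02 and 4.24 FPKM at ZT6 and at 5.70, 6.00, 5.24 and 6.32 FPKM at ZT18, a difference of 0.27 (SE 0.09) that was not called (adjusted p = 0.126), which checks nothing about the neurons. Here and below, values are listed in the order of library 0 to library 3 as the columns of the deposited table number them, differences are ZT18 minus ZT6 in log2(FPKM + 1), and p-values come from limma, adjusted by the Benjamini-Hochberg method over all genes tested. ZT18 library 0 stood apart from the other 7 along the first principal component (34.0% of variance), while the second (25.8%) held all 4 ZT6 libraries on one side and ZT18 libraries 1 to 3 on the other. Relative read depth, recovered from the steps between low values, was 1.08 ± 0.137 at ZT6 and 0.983 ± 0.0893 at ZT18 (SD, n = 4 each, exact two-sided permutation p = 0.343). The summed FPKM of a library ran from 451179 to 492451 at ZT6 and from 493469 to 525910 at ZT18, without overlap (exact permutation p = 0.0286, the smallest that 4 against 4 allow). Without rescaling 359 genes were called. After centring each library on its median 393 were called, 346 of them among the 359. After quantile normalisation 403 were called, 325 of them among the 359. The 4 ZT6 and 4 ZT18 libraries carried the same 4 index sequences, so libraries with the same index were in different sequencing pools. The sources used here do not give the pool of each library or the day of each harvest, and these cannot be told apart from time of day.

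At a Benjamini-Hochberg adjusted p below 0.05, 359 of 11312 genes (3.17%) differed between the 2 times in mutant muscle. At ZT18, 159 were higher (1.41%) and 200 were lower (1.77%). Called or not, 6013 genes had a higher mean at ZT18 and 5299 a lower one. These figures for all genes are the background for every count of list members below. The lists were chosen with earlier results of these data known, so such counts are descriptions, not tests. Lists share members, so the same gene can be counted under several of them. Of the 359, 332 had 4 ZT18 values that all lay to one side of the 4 ZT6 values, as did 11.5% of all genes tested. The calls were made on these same values, so this separation is no further support for them. Among called genes 125 rose and 123 fell by more than 0.5, 44 rose and 22 fell by more than 1, and 8 rose and 2 fell by more than 2. The log2(FPKM + 1) scale shrinks changes of genes at low FPKM. Requiring a mean of at least 5 FPKM left 122 called higher and 119 lower. The count depended on single libraries, since it was 214 without ZT18 library 3 and 314 without ZT18 library 0, the library that stood apart, and it reached 1003 when libraries were weighted by their quality. With the spread taken from the 8 mutant libraries alone 333 genes were called, and only 261 of them were among the 359. A comparison of 2 times sees only genes whose level differs between mid-day and mid-night, not those that peak near lights on or lights off.

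**Figure D1:**
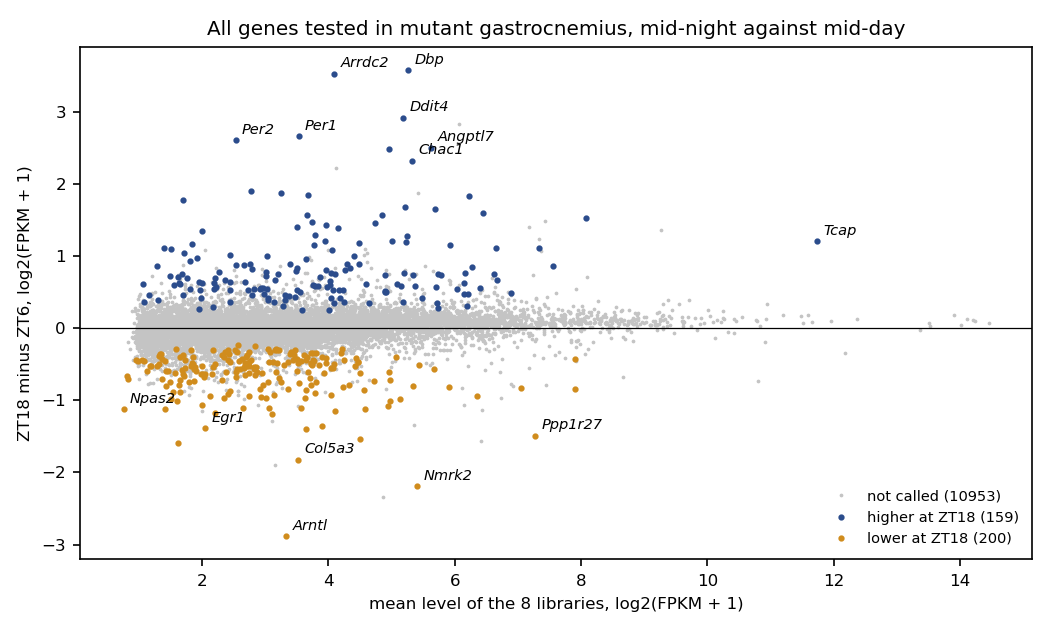
Difference between ZT18 and ZT6 (vertical axis, log2(FPKM + 1)) against mean level (horizontal axis, log2(FPKM + 1)) for each of the 11312 genes tested in mutant gastrocnemius, with 159 called higher in blue and 200 called lower in orange. Dbp and Arrdc2 lie highest and Arntl lowest, and Tcap is a called gene of very high level.

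All 3 tested clock activators fell at ZT18. Arntl read 17.6, 15.8, 16 and 17.4 FPKM at ZT6 and 1.48, 1.51, 1.52 and 1.13 FPKM at ZT18, a drop of 11.8-fold in the means (difference -2.88, SE 0.28, adjusted p = 2.2e-07). The times were far apart and each group was tight. Npas2, a close relative of Clock, stood at 1.14 to 1.72 FPKM at ZT6 and at 0.0360 to 0.0748 FPKM at ZT18, or 22.2-fold lower. Its difference on the log2(FPKM + 1) scale was -1.12 (SE 0.11, adjusted p = 1.35e-07), since that scale compresses low values. The ZT18 values lay far below 1 FPKM, where the counting error is not known, so the size of the fold is uncertain. Clock fell from 8.74 to 11.3 FPKM at ZT6 to 3.74 to 5.14 FPKM at ZT18, a 2.18-fold difference (adjusted p = 6.55e-07).

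The repressors moved the other way: 4 of the 6 tested rose and none fell. Per2 read 0.608, 0.414, 0.595 and 0.942 FPKM at ZT6 and 7.63, 9.42, 9.17 and 9.48 FPKM at ZT18, a rise of 13.9-fold (difference 2.60, SE 0.27, adjusted p = 3.28e-07). Per1 rose 8.83-fold, from 1.65, 1.67, 1.91 and 3.34 FPKM to 12.5, 20.9, 19.9 and 22.3 FPKM (difference 2.66, SE 0.31, adjusted p = 2.08e-06). Per3 rose 5.21-fold (1.61 to 2.20 FPKM against 8.77 to 10.2 FPKM, adjusted p = 3.4e-06). Ciart (CHRONO), a repressor that binds ARNTL, rose 8.48-fold, from 0.290 to 0.844 FPKM to 3.44 to 4.56 FPKM (adjusted p = 0.000161). In none of these 4 genes did the groups touch. The cryptochromes were the exceptions. Cry1 read 7.13 to 10.4 FPKM at ZT6 and 5.46 to 7.59 FPKM at ZT18, overlapping (difference -0.32, adjusted p = 0.309), and Cry2 read 9.19 to 11.6 FPKM and 13 to 17.7 FPKM, separate but not called (difference 0.54, adjusted p = 0.0937).

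The REV-ERB genes went opposite ways. Nr1d2 rose from 21.7, 23.3, 22.7 and 19.9 FPKM to 47.2, 53.9, 54.6 and 49.8 FPKM, or 2.34-fold (difference 1.19, SE 0.13, adjusted p = 1.08e-06). Nr1d1 fell from 38.3, 49.9, 39.5 and 36.7 FPKM to 19.2, 19.8, 23.0 and 17.4 FPKM, or 2.07-fold (difference -1.01, SE 0.26, adjusted p = 0.0259). The groups of both genes were separate, but the Nr1d1 call was lost in 6 of the 8 fits that left out 1 library, with adjusted p up to 0.096. Rora, which activates through the same sites, read 14.3 to 19.4 FPKM at ZT6 and 17.7 to 20.1 FPKM at ZT18, overlapping between the times (adjusted p = 0.317).

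Of 6 clock output factors 3 rose and none fell. Dbp, which activates D-box promoters, had the largest difference of any gene tested: 5.37, 5.36, 5.97 and 3.36 FPKM at ZT6 against 74.8, 63.9, 67.8 and 72.1 FPKM at ZT18, a 13.9-fold rise (difference 3.57, SE 0.30, adjusted p = 2.96e-08). Its relatives rose less, Hlf 2.44-fold (2.18 to 2.99 FPKM against 4.64 to 7.31 FPKM, adjusted p = 0.000128) and Tef 1.81-fold (51.7 to 56.5 FPKM against 95.9 to 102 FPKM, adjusted p = 0.000446). Nfil3, which competes for the same motif, overlapped (12.8 to 28.5 FPKM at ZT6 against 11.1 to 16.1 FPKM at ZT18, adjusted p = 0.622), as did the repressor Bhlhe41 (adjusted p = 0.561) and, by 1 library, Bhlhe40 (25.6 to 34.8 FPKM at ZT6 against 33.9 to 44.6 FPKM at ZT18, adjusted p = 0.443). Among 9 kinases and modifiers of clock proteins, the deubiquitinase gene Usp2 was the single call, rising 2.49-fold from 18.6 to 23.4 FPKM to 50.4 to 54.5 FPKM (adjusted p = 0.000115). The casein kinases that mark PER proteins for decay, Csnk1d and Csnk1e, differed by 0.14 and 0.13, with adjusted p of 0.529 and 0.659.

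**Figure D2:**
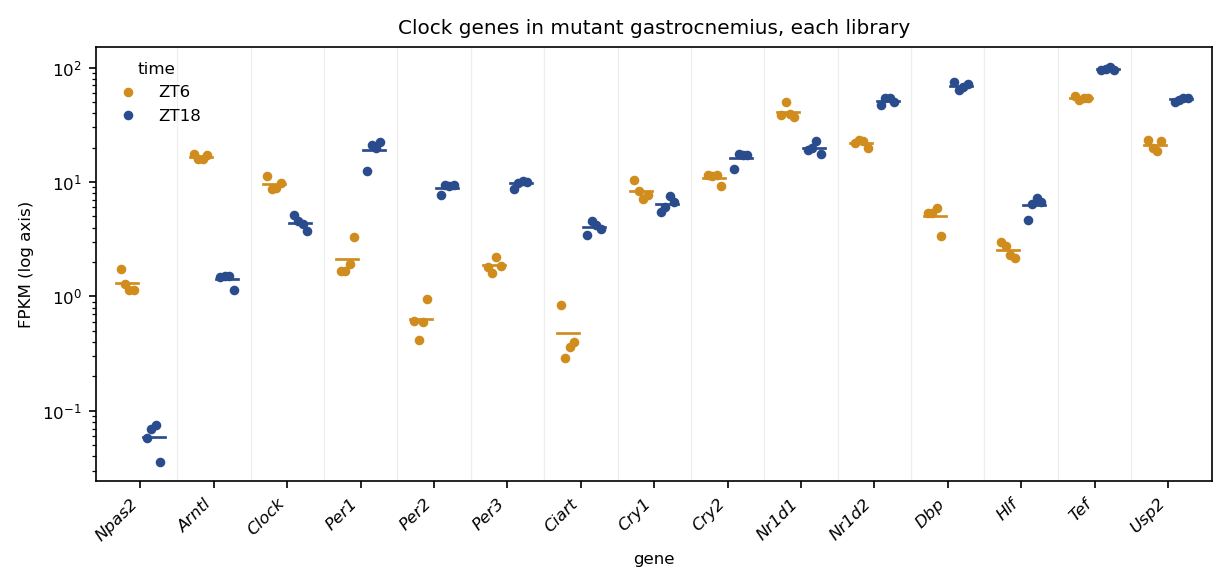
FPKM on a log axis of 15 clock genes in each mutant library, ZT6 in orange and ZT18 in blue, with a bar at each group's mean of 4. Npas2, Arntl, Clock and Nr1d1 sit lower at ZT18, the period genes, Ciart, Nr1d2, Dbp, Hlf, Tef and Usp2 sit higher, and Cry1 overlaps.

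The bases just upstream of some of these genes carry motifs of the clock. RefSeq promoter windows of GRCm38.p6 (mm10) were searched on both strands over the 250 bases before each listed start, for the E-box CACGTG, the D-box TTATGNAA, the REV-ERB and ROR motif TAGGTNA, the spaced glucocorticoid receptor motif ACANNNTGT and the cyclic AMP response element TGACGTCA. Any of these matches is a description of the letters, not evidence of binding. The windows below are those of genes that rose and that held several matches to the first 3 motifs, shown 5′ to 3′ along the gene with matches in capitals. They are Ciart (chr3:95882229-95882478, minus strand, 3 E-boxes), Per1 (chr11:69098699-69098948, plus strand, 1 E-box and 1 D-box), Per3 (chr4:151044666-151044915, minus strand, 2 D-boxes) and Coq10b (chr1:55052520-55052769, plus strand, 1 match to each of these 3).
Ciart: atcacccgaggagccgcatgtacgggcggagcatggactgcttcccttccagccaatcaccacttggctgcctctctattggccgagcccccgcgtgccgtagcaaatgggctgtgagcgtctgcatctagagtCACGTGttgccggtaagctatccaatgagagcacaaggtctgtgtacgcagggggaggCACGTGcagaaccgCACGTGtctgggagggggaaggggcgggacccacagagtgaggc
Per1: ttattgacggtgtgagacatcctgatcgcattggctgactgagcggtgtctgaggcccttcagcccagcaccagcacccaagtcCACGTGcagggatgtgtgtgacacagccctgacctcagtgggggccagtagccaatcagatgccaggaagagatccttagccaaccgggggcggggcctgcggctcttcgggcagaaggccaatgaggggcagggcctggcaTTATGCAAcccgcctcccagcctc
Per3: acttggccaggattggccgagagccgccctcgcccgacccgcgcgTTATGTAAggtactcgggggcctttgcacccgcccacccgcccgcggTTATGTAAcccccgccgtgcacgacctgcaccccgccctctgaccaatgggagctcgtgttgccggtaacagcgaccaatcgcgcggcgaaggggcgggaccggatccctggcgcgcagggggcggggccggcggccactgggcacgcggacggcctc
Coq10b: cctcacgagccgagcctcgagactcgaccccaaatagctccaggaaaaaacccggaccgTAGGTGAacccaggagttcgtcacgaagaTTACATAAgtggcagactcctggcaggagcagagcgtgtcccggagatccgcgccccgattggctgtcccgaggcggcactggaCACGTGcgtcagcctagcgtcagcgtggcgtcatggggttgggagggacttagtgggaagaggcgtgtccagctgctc
An E-box occurred in 6.02% of all 32851 windows and in 8.55% of the 10874 windows of tested genes. It occurred in 14% of the 164 windows of 120 genes that rose (22 genes, Ciart, Per1, Tef and Coq10b among them) and in 7.94% of the 189 windows of 135 genes that fell. D-boxes were found in 1.76% of the windows of tested genes, in 3.05% of those of genes that rose and in 1.06% of those of genes that fell. TAGGTNA was found in 5.2%, 4.88% and 3.17% of the same sets. ACANNNTGT was found in 3.53% of the windows of tested genes and at nearly the same share in genes that rose (5.49%) and that fell (5.29%). TGACGTCA was found in 2.57% of the windows of tested genes, in 1.83% of those of genes that rose and in 4.23% of those of genes that fell. Over all windows the D-box, TAGGTNA, ACANNNTGT and TGACGTCA were found in 3.07%, 7.25%, 5.84% and 1.55%. The windows of Arntl and Dbp held none of the 5 motifs.

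Of 28 tested genes of the glucocorticoid response, the receptor gene Nr3c1 among them, 11 were called higher, none lower and 17 were not called. Of all genes 1.41% were called higher and 1.77% lower. The median difference of the 28 was 0.75, beside 0.01 for all genes. Since the list was chosen with earlier results of these data known, its share beside all genes is no test. The 11 were Per1, Arrdc2, Klf9, Sgk1, Cebpb, Cebpd, Ddit4, Tsc22d3, Errfi1, Gadd45a and Nfkbia. Fits that left out 1 library called 8 to 11 members of the list higher, not always the same genes: the count was 11 without ZT18 library 0, although Gadd45a was lost there. Sgk1, a kinase of ion transport, read 26.9, 45.7, 39.1 and 61.3 FPKM at ZT6 and 103, 148, 141 and 122 FPKM at ZT18 (difference 1.6, SE 0.22, adjusted p = 3.06e-05). The transcription factor Cebpd rose 5.05-fold, from 2.39, 2.42, 3.08 and 3.41 FPKM to 8.14, 24.5, 8.10 and 16.4 FPKM (adjusted p = 0.00385). Klf9, which restrains growth, rose 1.69-fold and within narrow groups, 26.4 to 32.3 FPKM against 48.4 to 51.2 FPKM (adjusted p = 1.77e-05).

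Several textbook targets of the hormone and of muscle wasting did not follow. The values of 5 of them were looked at after the list result was seen. Pdk4, which turns muscle from glucose to fat, read 55.3, 67.1, 78.0 and 86.5 FPKM at ZT6 and 71.2, 275, 218 and 294 FPKM at ZT18. Library 0 of ZT18 lay within the ZT6 range, and the difference of 1.4 (SE 0.45) was not called (adjusted p = 0.0932). The ubiquitin ligases of muscle atrophy overlapped between the times, Fbxo32 at 56.5 to 90.2 FPKM against 57.9 to 68.1 FPKM (adjusted p = 0.746) and Trim63 at 140 to 201 FPKM against 151 to 225 FPKM (adjusted p = 0.799). By contrast Cebpb, 4.27 to 6.08 FPKM against 10.6 to 18.2 FPKM, rose 2.99-fold (adjusted p = 0.000853), and Tsc22d3 (GILZ) rose 2.17-fold (adjusted p = 0.00618), although its highest ZT6 library, at 140 FPKM, reached its lowest ZT18 library, at 139 FPKM. No member of the 23 atrophy and ubiquitin genes or of the 22 autophagy genes was called, beside 3.17% of all genes tested.

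Some of the largest rises were in 3 genes of the list of mTOR inhibitors and arrestins. Arrdc2, an alpha-arrestin that draws receptors and transporters to ubiquitin ligases, rose 18.6-fold, from 1.24, 2.01, 1.64 and 1.65 FPKM to 17.7, 38.7, 29.6 and 35.7 FPKM (difference 3.53, SE 0.43, adjusted p = 6.37e-06). Its relative Arrdc3 rose 3.48-fold, from 13.6 to 17.6 FPKM to 31.9 to 72.2 FPKM (adjusted p = 0.000112). Ddit4 (REDD1), an inhibitor of mTOR complex 1, rose 11.8-fold but unevenly. It read 3.63, 5.54, 4.90 and 7.88 FPKM at ZT6 and 9.29, 105, 45.7 and 99.8 FPKM at ZT18, so that ZT18 library 0 was barely above the ZT6 group (difference 2.92, SE 0.60, adjusted p = 0.00393, and 0.054 when the spread was taken from the 8 mutant libraries alone). The related Ddit4l went the other way, 121 to 191 FPKM against 65.6 to 131 FPKM, with overlapping groups (adjusted p = 0.0361, lost in 6 of 8 fits without 1 library, up to 0.152). In all, 3 of 14 mTOR inhibitors and arrestins rose and 1 fell, beside 1.41% and 1.77% of all genes. Of the rises, Arrdc2 and Ddit4 were also counted among the glucocorticoid response genes. The other 10 were not called, and the median difference of the list was 0.10.

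Of 14 growth arrest genes 4 rose and none fell, beside 1.41% and 1.77% of all genes, with a median difference of 0.07. Gadd45g, a stress protein that slows the cell cycle, read 14.0, 32.3, 30.9 and 53.4 FPKM at ZT6 and 56.1, 158, 108 and 140 FPKM at ZT18 (difference 1.83, SE 0.43, adjusted p = 0.0112), but was lost without ZT6 library 0, ZT18 library 1 or ZT18 library 3 (up to 0.0709), and stood at 0.054 with the spread of the 8 libraries alone. Wee1, a mitotic kinase under clock control, rose 3.33-fold, from 0.982 to 1.42 FPKM to 2.75 to 4.83 FPKM (adjusted p = 0.00015). Cdkn1c (p57) and Gadd45a rose 1.36-fold and 1.77-fold, with calls lost in 5 and 7 of 8 fits without 1 library (adjusted p up to 0.138 and 0.15). Chac1, a glutathione-degrading enzyme of the stress response, rose 4.97-fold (6.06, 9.03, 8.77 and 28.5 FPKM against 77.4, 107, 34.1 and 41.4 FPKM, adjusted p = 0.0169, lost in 5 of 8 such fits, up to 0.0758). It was 1 of 2 calls among 19 genes of endoplasmic reticulum stress, with the chaperone Dnajb9 (1.43-fold, adjusted p = 0.00618, and 0.107 with the spread of the 8 libraries alone), while 14 of the 19 had a lower mean at ZT18. Of all 11312 genes 3.17% were called and 5299 had a lower mean.

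Immediate early genes, which respond within minutes to activity and hormones, split. Of 20 tested, 3 rose and 2 fell, beside 1.41% and 1.77% of all genes. Egr1 fell 4.26-fold, from 4.42, 9.51, 3.56 and 2.75 FPKM to 0.399, 1.37, 1.59 and 1.4 FPKM (difference -1.39, SE 0.30, adjusted p = 0.0061), and Ier2 fell 1.67-fold (adjusted p = 0.02, lost in 3 of 8 fits without 1 library, up to 0.096). Klf6, Jun and the nuclear receptor gene Nr4a1 rose, by 0.71, 0.61 and 1.15 (adjusted p = 0.0132, 0.0216 and 0.0452), Nr4a1 being named here after its value was seen, to complete the count. The 3 rises were not firm: without ZT6 library 1 none of the 20 genes was called higher and 1 was called lower, and Egr1 was at 0.0551 with the spread of the 8 libraries alone. Of 13 Krüppel-like factors 3 rose, Klf9, Klf11 and Klf6, and none fell, beside 1.41% and 1.77% of all genes. Klf11 read 1.01 to 1.75 FPKM against 2.08 to 3.31 FPKM (adjusted p = 0.011, lost without ZT6 library 0 or ZT18 library 2, up to 0.0607).

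**Figure D3:**
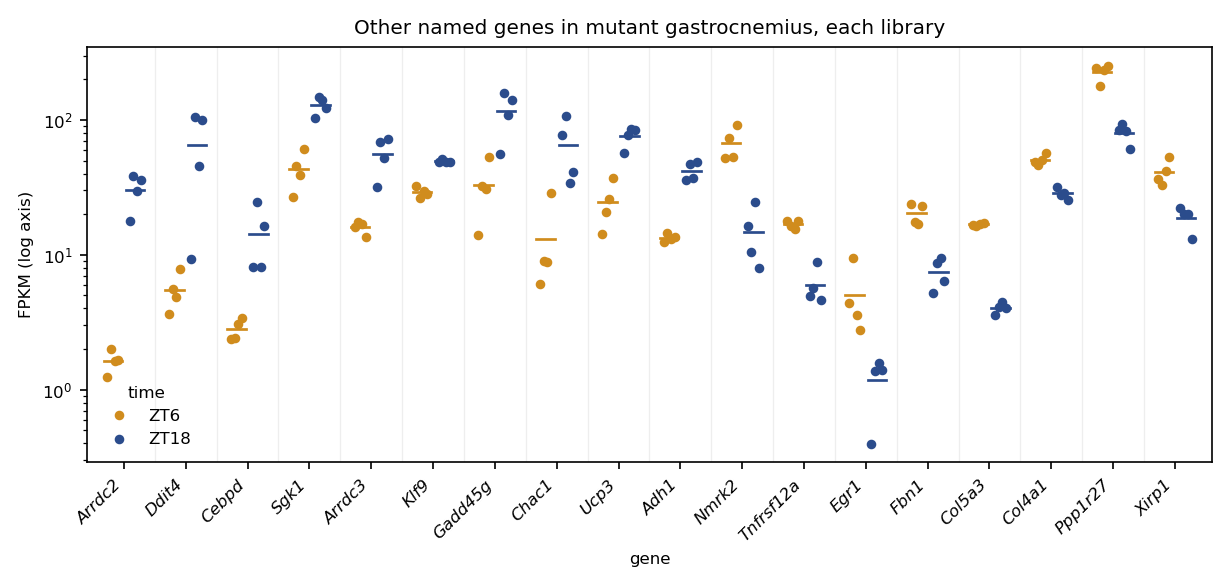
FPKM on a log axis of 18 named genes outside the core clock in each mutant library, ZT6 in orange and ZT18 in blue, with a bar at each group's mean of 4. The genes from Arrdc2 to Adh1 sit higher at ZT18 and those from Nmrk2 to Xirp1 lower, and ZT18 library 0, the leftmost blue point, lies near the ZT6 values for Ddit4.

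Single genes of fuel use were called. Ucp3, a mitochondrial carrier of muscle that follows fatty acid supply, rose 3.09-fold, from 14.3, 20.9, 25.7 and 37.4 FPKM to 57.1, 76.9, 86.0 and 83.8 FPKM (difference 1.65, SE 0.27, adjusted p = 0.000403). It was the 1 call among 30 genes of fatty acid use, of which 29 had a higher mean at ZT18 (median difference 0.30). Of all 11312 genes tested 3.17% were called, and 6013 had a higher mean at ZT18. Without ZT18 library 0, 3 of the 30 were called higher. In glucose use 2 of 25 rose: Hk2, which phosphorylates glucose on entry (70.4 to 82.3 FPKM against 110 to 149 FPKM, 1.6-fold, adjusted p = 0.00139), and Pfkfb1, a regulator of glycolysis (30.2 to 35.1 FPKM against 45.5 to 53.9 FPKM, 1.51-fold, adjusted p = 0.00189). None of 17 glycogen genes was called. Pik3ca, the catalytic subunit of PI3-kinase in insulin signalling, fell 1.44-fold (13.3 to 15.8 FPKM against 9.22 to 10.6 FPKM, adjusted p = 0.000651), the 1 call of 18.

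Of 30 lipid synthesis genes 3 were called lower and 1 higher, and 22 of 30 means were lower at ZT18 (median difference -0.26, and -0.10 without ZT18 library 0). Of all 11312 genes 1.77% were called lower and 1.41% higher, and 5299 had a lower mean. Without ZT6 library 1, 15 of the 30 means were lower. The entry that joins Mir5114,Scd2, whose larger part is the fatty acid desaturase gene, fell 3.13-fold from 22.4, 41.3, 29.8 and 38.2 FPKM to 9.69, 11.5, 12.4 and 8.47 FPKM (adjusted p = 0.000151). Sqle, an enzyme of cholesterol synthesis, fell 2.56-fold from 1.87 to 3.52 FPKM to 0.697 to 1.11 FPKM (adjusted p = 0.00885, and 0.0589 without ZT6 library 1). Gpam, which starts triglyceride synthesis, was called higher at 1.5-fold (adjusted p = 0.0425) but lost in 7 of 8 fits without 1 library (up to 0.154). The large respiratory and protein-turnover sets hardly entered the calls: 0 of 50 oxidative phosphorylation genes, 0 of 31 proteasome genes, 0 of 30 cytosolic ribosome genes and 1 of 32 mitochondrial ribosome genes (Mrpl39, adjusted p = 0.0329, lost in 6 of 8 fits). At an unadjusted limma p below 0.05 these sets held, in the same order, 2, 3, 2 and 5 genes. Means were higher at ZT18 in 42 of 50, 29 of 31, 19 of 30 and 28 of 32, beside 6013 of all 11312 genes. The shifts were small, with median differences of 0.08, 0.12, 0.06 and 0.10 in mutants and -0.04, -0.01, 0.01 and -0.05 in controls. Of all genes tested 3.17% were called and 13.1% had an unadjusted p below 0.05.

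Transport and cofactor genes added single large changes. Adh1, an alcohol and retinol dehydrogenase, rose 3.14-fold from 12.3, 14.5, 13.1 and 13.6 FPKM to 35.6, 47.0, 36.9 and 48.4 FPKM (adjusted p = 1.35e-07). Coq10b, a coenzyme Q binding protein of mitochondria, rose 3.34-fold from 5.28, 5.29, 4.83 and 6.14 FPKM to 15.4, 16.8, 18.7 and 21.1 FPKM (adjusted p = 1.83e-06). Both had tight, distant groups. Angptl7, a secreted protein, rose 5.12-fold from 35.0, 8.12, 9.09 and 11.3 FPKM to 61.1, 67.1, 101 and 95.2 FPKM (adjusted p = 0.0114, and 0.0528 without ZT6 library 1). Slc7a2, a carrier of arginine and lysine, rose 2.4-fold (6.40 to 9.64 FPKM against 14.0 to 22.3 FPKM, adjusted p = 0.00632), and Gpt2, which exchanges alanine and pyruvate, rose 1.4-fold (adjusted p = 0.00291). The amino acid carrier gene Slc38a4 was called lower at 1.73-fold (adjusted p = 0.0477), a call lost in 7 of 8 fits without 1 library (up to 0.2). The potassium channel gene Kcna5 rose 2.62-fold, from 1.41 to 1.62 FPKM to 2.79 to 4.99 FPKM (adjusted p = 0.000922), and the sodium pump subunit Atp1b1 rose 1.69-fold (adjusted p = 0.0154, lost without ZT6 library 2 or ZT18 library 2, up to 0.0761).

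The largest called fall after Arntl was in Nmrk2, a muscle kinase that makes NAD from nicotinamide riboside: 52.6, 73.5, 52.8 and 92.4 FPKM at ZT6 against 16.4, 10.4, 24.7 and 7.98 FPKM at ZT18, 4.56-fold lower (difference -2.19, SE 0.48, adjusted p = 0.00648). The groups were far apart and each was wide. Nmrk2 was the 1 call among 16 genes of sirtuins and NAD metabolism, none of the others reaching the threshold.

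Single genes of the contractile lists were called. Tcap (telethonin), which caps titin at the Z-disc, rose 2.32-fold from 1935, 2194, 2220 and 1875 FPKM to 5505, 4253, 4797 and 4506 FPKM (difference 1.21, SE 0.17, adjusted p = 4.94e-05). Lmod2, an actin filament nucleator, rose 2.2-fold from 56.8 to 65.8 FPKM to 124 to 169 FPKM (adjusted p = 0.000144). These were the 1 call of 12 core muscle genes and the 1 of 19 slow fibre genes, while 0 of 18 fast fibre genes were called. Of all genes tested 3.17% were called, and the counts are too small to set these lists apart from that share. None of the 18 fast fibre genes reached an unadjusted limma p below 0.05, beside 13.1% of all genes tested. Xirp1, an actin-binding protein of damaged and growing muscle, fell 2.17-fold (32.7 to 52.8 FPKM against 13 to 22.2 FPKM, adjusted p = 0.00774, and 0.0544 without ZT18 library 3). Ppp1r27, a regulatory subunit of protein phosphatase 1, fell 2.83-fold from 241, 178, 236 and 252 FPKM to 84.0, 92.9, 82.9 and 61.1 FPKM (adjusted p = 0.000257). Tnfrsf12a, the TWEAK receptor of muscle, fell 2.83-fold too, from 15.6 to 17.9 FPKM to 4.59 to 8.82 FPKM (adjusted p = 0.00399).

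Other leading falls were in regulators. Dyrk2, a protein kinase, fell 2.34-fold (20.3 to 24.7 FPKM against 8.50 to 11.1 FPKM, adjusted p = 6.55e-07), and Cpeb1, which controls translation through polyadenylation, fell 2.25-fold (29.3 to 36.7 FPKM against 11.0 to 17.0 FPKM, adjusted p = 0.00136). Pim1, a survival kinase, fell 2.55-fold (8.11 to 16.1 FPKM against 2.29 to 5.76 FPKM, adjusted p = 0.00991, lost without ZT6 library 3 or ZT18 library 0, up to 0.0587). Creb3l1, a membrane-bound factor that drives collagen secretion, fell 2.88-fold (4.62 to 6.44 FPKM against 0.865 to 2.22 FPKM, adjusted p = 0.00122). Among satellite cell and myogenic genes 2 of 17 fell, beside 1.77% of all genes. They were Tead4, 2.34-fold (4.49 to 4.84 FPKM against 1.32 to 2.46 FPKM, adjusted p = 0.0238), and Eya1, 1.32-fold (10.4 to 11.2 FPKM against 7.44 to 8.65 FPKM, adjusted p = 0.0138). The Tead4 call was lost in 5 and the Eya1 call in 2 of 8 fits without 1 library (up to 0.117 and 0.0729).

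Of 32 fibroblast and matrix genes 4 fell and none rose, and 24 of 32 had a lower mean (median difference -0.31). Of all 11312 genes 1.77% were called lower and 1.41% higher, and 5299 had a lower mean. Fbn1 (fibrillin), the backbone of elastic microfibrils, fell 2.73-fold from 23.9, 17.6, 17.0 and 22.9 FPKM to 5.17, 8.75, 9.52 and 6.39 FPKM (difference -1.35, SE 0.30, adjusted p = 0.00669). The basement membrane collagens fell together, Col4a1 from 46.4 to 56.9 FPKM to 25.6 to 32 FPKM (adjusted p = 0.00944) and Col4a2 from 35.9 to 41.2 FPKM to 20.9 to 25.4 FPKM (adjusted p = 0.00728). Their genes lie head to head on chromosome 8 of mm10, Col4a1 ending at position 11312826 and Col4a2 starting at 11312829. Col15a1 fell 1.75-fold (adjusted p = 0.0451, lost in 6 of 8 fits without 1 library, up to 0.167). Col5a3, not on the list, had the clearest fall of a collagen, from 16.6, 16.4, 16.9 and 17.2 FPKM to 3.57, 4.07, 4.50 and 4.03 FPKM, or 4.16-fold (adjusted p = 5.62e-07). Summed over the 32 genes, the list did not separate the times, at 1854 to 3342 FPKM at ZT6 and 1390 to 2577 FPKM at ZT18.

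**Figure D4:**
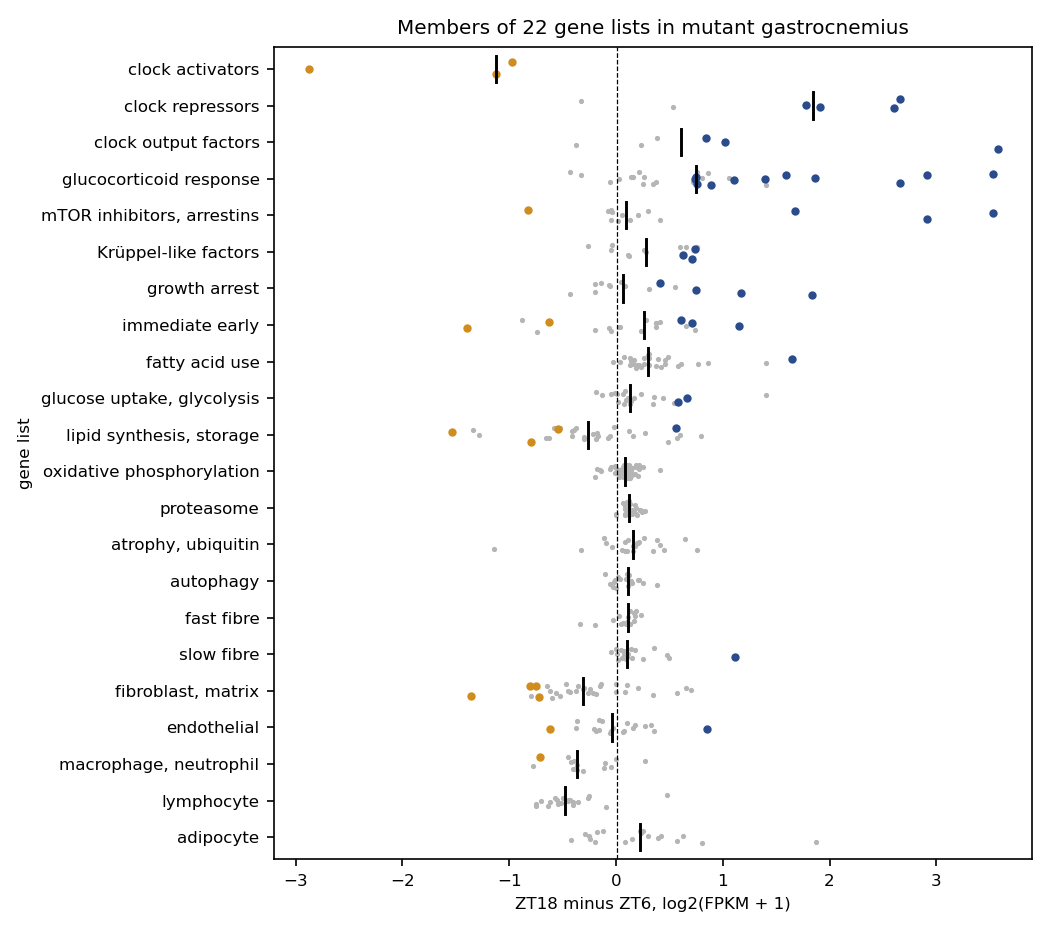
Differences between ZT18 and ZT6 (horizontal axis, log2(FPKM + 1)) of every tested member of 22 gene lists, 1 point a gene, with called genes in blue (higher) or orange (lower), the list's median as a black tick and the median of all genes as a dashed line. Called members are frequent among clock genes and glucocorticoid response genes and absent from the oxidative phosphorylation, proteasome, autophagy and fast fibre lists. Of all genes tested 3.17% were called.

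Markers of other cells in the muscle were read alongside. In bulk tissue fewer cells of a type and less RNA per cell cannot be told apart. Of 20 endothelial genes Aqp1, a water channel, rose 1.83-fold (122 to 149 FPKM against 184 to 266 FPKM, adjusted p = 0.0013) and Kdr, the VEGF receptor, fell 1.59-fold (14.0 to 19.2 FPKM against 9.62 to 12.3 FPKM, adjusted p = 0.00806). None of 14 smooth muscle genes, 19 adipocyte genes, 20 lymphocyte genes, 10 nerve genes, 3 blood genes or 2 skin genes was called. Of 15 macrophage and neutrophil genes Mmp9 was called lower (1.01 to 1.51 FPKM against 0.182 to 0.531 FPKM, adjusted p = 0.0356, lost in 7 of 8 fits without 1 library, up to 0.128). The lymphocyte sum ran from 17.1 to 195 FPKM at ZT6 and from 14.5 to 104 FPKM at ZT18, with 19 of 20 means lower at ZT18 and a median difference of -0.47, which was -0.09 without ZT18 library 0. The macrophage and neutrophil sum was 241 to 366 FPKM at ZT6 and 117 to 241 FPKM at ZT18, and its lowest value was again ZT18 library 0. The matrix list also had its lowest ZT18 sum in library 0. At ZT6 the highest matrix sum, 3342 FPKM, was in library 0, which had the lowest lymphocyte sum, 17.1 FPKM. A fit with lymphocyte and adipocyte scores of each library as covariates called 384 genes, 322 of them among the 359. Fbn1, Col4a1, Col4a2 and Col15a1 were still called lower in it. Macrophages and neutrophils entered no fit, and the part of any of these cells in the matrix falls was not tested. Without ZT18 library 0 the matrix list had 3 falls and a median of -0.18. The 19 adipocyte genes had a median difference of 0.23, which ran from -0.22 without ZT18 library 3 to 0.64 without ZT6 library 1. The member with the largest difference, Pck1, read 2.82, 23.4, 9.45 and 22 FPKM at ZT6 and 11.0, 28.9, 64.9 and 172 FPKM at ZT18 (adjusted p = 0.491).

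The same contrast in control muscle, 4 libraries at ZT6 and 4 at ZT18, shows how far these changes are shared. It called 242 of 11311 genes (2.14%), 111 higher (0.981%) and 131 lower (1.16%). Of the genes called, 158 were called in both genotypes, 44% of the mutant calls and 65.3% of the control calls, all 158 in the same direction. By direction alone, 357 of the 359 mutant calls (99.4%) went the same way in controls, beside 62.7% of all genes tested. A test of the genotype difference in the ZT18 minus ZT6 change found 0 genes by limma (smallest adjusted p = 0.998), with 303 of 11311 (2.68%) at an unadjusted p below 0.05. A call made in mutants and missed in controls is thus not a tested difference between the genotypes. The 3 genes with the smallest interaction p were Armc9, 2010204K13Rik and Plxna2, with differences of -0.13, -0.77 and -0.30 in mutants beside 0.38, 0.54 and 0.19 in controls.

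The clock genes moved in the same direction in both genotypes. Arntl differed by -2.88 in mutants and -2.04 in controls, Dbp by 3.57 and 2.49, Per2 by 2.60 and 2.31, and Ciart by 1.78 and 1.99. At ZT18 Arntl stood at 1.41 ± 0.185 FPKM in mutants (SD, n = 4) and at 8.84, 3.53, 1.12 and 1.51 FPKM in the 4 control libraries, control libraries 0 and 1 lying above every mutant value. Its unadjusted interaction p was 0.0459. Of the 28 glucocorticoid response genes 6 were called higher in controls, with a median difference of 0.63 beside 0.75 in mutants. Values for some matrix and immediate early genes lay further apart, without a call: Fbn1 differed by -1.35 in mutants and -0.46 in controls, Egr1 by -1.39 and -0.21, and the median of the 32 matrix genes was -0.31 in mutants and 0.23 in controls. The unadjusted interaction p was 0.0431 for Fbn1 and 0.0104 for Egr1, and neither passed adjustment.

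**Figure D5:**
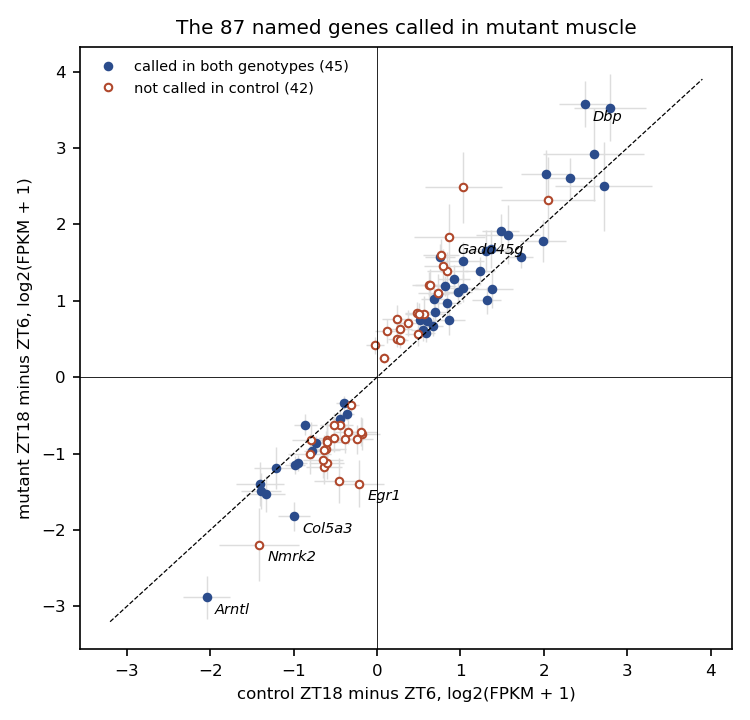
ZT18 minus ZT6 difference in mutants (vertical axis) against the same difference in controls (horizontal axis), both in log2(FPKM + 1), for the 87 named genes called in mutants, with bars of 1 standard error and a dashed line of equal differences. Filled points are 45 genes also called in controls and open points are 42 that were not, and since the genes were chosen by the mutant contrast their place relative to the line carries no test.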

How the data were processed

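Polyadenylated RNA of gastrocnemius was sequenced as stranded single-end libraries, per the labels' protocols. The authors deposited 1 FPKM value per gene and library for all 32 libraries, on build mm10 per the submitters' processing notes; the aligner, quantifier and annotation are not given in the sources used here. Columns named TG and WT were read as mutant and control. Starts in the deposited table count from 0 and are given here from 1.

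Genes with at least 1 FPKM in 4 of the 8 mutant libraries were kept, as log2(FPKM + 1). An exact 0 was treated as missing where the median of the gene's other values was at least 10 FPKM (13 tested genes). limma 3.58.1 (R 4.3.3) fitted 8 group means over the 32 libraries with a trended prior, 24 residual degrees of freedom, and Benjamini-Hochberg adjustment at 0.05. The pseudocount understates changes of genes at low FPKM. Read counts are not part of the files used, so depth is known only in relative terms, 0.806 to 1.38 over all libraries, from the steps between low values (75.2% within 0.1 of a whole step, where 20% would be without steps). The fit was tested on simulated data.

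Of 910 entries in 45 gene lists, 848 were tested. The members and lists were chosen with earlier results of these data known. Named genes were the 12 largest rises and 12 largest falls (called, separate groups, mean of at least 5 FPKM in the higher group), all tested clock genes, up to 4 called members of each other list by p (or the 2 smallest p where none was called), the 3 smallest interaction p, and genes added after their values were seen. A few genes that these rules name are not reported here. Values are on the scale stated beside them. Alternatives were the pseudocount, filters, zeros, scaling, weights, covariates, a fit of the compared libraries alone and leaving out each library. Promoter windows were matched by symbol for 104 of 140 named genes.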

Additional observations from a re-analysis of the deposited data

Results flagged for a closer look

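In 280 groups of 4 mutant libraries (each named gene at each time), 19 had 1 library far from the other 3 by Dixon's criterion, where chance alone gives about 1 in 20. ZT18 library 0 was the distant one 8 times and ZT6 library 3 was 6 times.

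ZT18 library 0 was the lowest of its group for Per2 (7.63 FPKM, next 9.17), Creb3l1 (0.865, next 2.16), Cry2 (13, next 17.2), Aqp1 (184, next 257), Fst (1.61, next 2.37) and Cd8b1 (listed at 0, next 0.963). It was the highest for Rps2 (43.4 FPKM, next 27.5) and Lmod2 (169, next 130). ZT6 library 3 was the highest for Per1 (3.34 FPKM, next 1.91), Chac1 (28.5, next 9.03) and Slc25a25 (23.6, next 6.18), and the lowest for Cry2 (9.19, next 11.2), Kdr (14.0, next 18.3) and Acvr1b (11.5, next 14.1). ZT6 library 0 was the highest for Angptl7 (35.0 FPKM, next 11.3) and the lowest for Timeless (0.690, next 1.12). ZT18 library 3 was the lowest for Arntl (1.13 FPKM, next 1.48) and Cdkn1c (14.7, next 18.5), and ZT6 library 2 was the highest for Cnp (12.1 FPKM, next 10.6).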

How the results depend on the processing

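Of 87 named genes called in mutants, 57 were called in every alternative run, 30 were lost in 1 or more and 0 reversed. Weighting libraries by quality called 1003 genes in mutants (540 higher, 463 lower) and 1026 in controls. Leaving out 1 library called 214 to 314 in mutants (102 to 155 higher, 112 to 168 lower), lowest without ZT18 library 3, and 110 to 354 in controls. Requiring a mean of at least 5 FPKM tested fewer genes and called 241 in mutants (122 higher, 119 lower) and 159 in controls, both directions together. The genotype difference had 0 calls by limma in every alternative, beside 303 at an unadjusted p below 0.05. The share of higher calls, 44.3%, ranged from 41.1% to 53.8%. The sign turned for 3 uncalled genes among those reported here. Leaving out 1 library gave -0.0048 to 0.38 for Alas2 (negative without ZT18 library 1) and -0.19 to 0.022 for Trp63 (positive without ZT18 library 3), and quantile normalisation gave 0.010 for Krt10. Apart from the changes in genes tested or samples, the cause was not tested. No paired analysis was possible because the columns carry only a library number that is not tied to a mouse or pair. Without read counts, the counting error of low FPKM values is not known.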

Other observations

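Called genes outside every list numbered 292, 114 higher and 178 lower at ZT18, and those described here were chosen after their values were seen. Mylk4, a myosin light chain kinase family member, rose 2.93-fold from 142, 162, 122 and 122 FPKM to 277, 465, 444 and 421 FPKM (limma adjusted p = 0.000293). Snrk, a kinase related to AMPK, rose from 9.20 to 10.1 FPKM to 19.8 to 24.9 FPKM (adjusted p = 1.52e-06). Mat2a, which makes S-adenosylmethionine, rose from 70.01 to 74.4 FPKM to 110 to 131 FPKM (adjusted p = 3.89e-06). The groups of these 3 genes were separate. Slc25a25, a mitochondrial carrier of ATP-Mg, read 4.47, 4.03, 6.18 and 23.6 FPKM at ZT6 and 19.2, 49.97, 67.2 and 67.0 FPKM at ZT18, where ZT6 library 3 lay above ZT18 library 0 (adjusted p = 0.00139). The transcriptional repressor gene Zhx2 fell within tight groups, from 14.5 to 15.6 FPKM to 6.87 to 8.99 FPKM (adjusted p = 2.86e-07).

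Further calls chosen in the same way were single genes. Acvr1b, a type I activin receptor, rose from 11.5 to 14.5 FPKM to 22.8 to 26.5 FPKM (adjusted p = 0.000651). Acvr2a, a type II receptor, fell from 12.3 to 17.3 FPKM to 10.1 to 11.7 FPKM (adjusted p = 0.0429, lost in 5 of 8 fits without 1 library, up to 0.209). Fst (follistatin), which binds activins, fell from 3.03 to 5.55 FPKM to 1.61 to 2.50 FPKM (adjusted p = 0.0315, lost in 5 of 8 fits without 1 library, up to 0.154). Asb2, a ubiquitin ligase subunit of muscle, fell from 287 to 334 FPKM to 148 to 189 FPKM (adjusted p = 0.0216, lost in 4 of 8, up to 0.0888). Mmp14, a membrane protease that cuts matrix, fell from 7.53 to 12.3 FPKM to 3.59 to 4.76 FPKM (adjusted p = 0.00314).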
